A study of Mus musculus with 7 samples.

Results

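The genes described are the 43 of the 55401 in the deposited count table whose names match a list of enzymes, transporters and kinases that build, sulfate and trim glycosaminoglycan chains. The list covers the linkage region (6 genes), chondroitin chain elongation (6), chondroitin and dermatan modification (10), heparan chain elongation (5), heparan modification (6), extracellular endosulfatases (2), hyaluronan synthases (3), and the supply of sulfate and sugar donors (5). Glycosaminoglycans are long sugar chains carrying dense negative charge. In cartilage, chondroitin sulfate chains on aggrecan draw water into the matrix and give it its resistance to compression, while heparan sulfate on perlecan and the syndecans holds growth factors near cells. Hyaluronan is the exception, being made at the cell membrane without a core protein or sulfate and serving as the backbone on which aggrecan assembles.

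The question was how transcripts of this machinery compared between WT and Trpc1-/- mice in early osteoarthritis. All mice were C57BL/6J males aged 10 weeks whose right knee had undergone destabilization of the medial meniscus (DMM), an operation that leads to osteoarthritis, and tissue was taken 2 weeks later. The labels name 4 WT and 3 Trpc1-/- samples, each a pool of 2 to 3 mice, and the methods section gives the group sizes the other way round, so that the labels were followed. The deletion of Trpc1, which encodes a calcium-permeable cation channel, was global rather than confined to chondrocytes. No sham-operated or intact knee was analysed here, so every value describes operated joints. Although labelled articular cartilage, the samples also held subchondral bone according to the methods.

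Totals per sample lay between 52142451 and 118254070 counts, with the fewest in WT replicate 1. That sample also stood apart in its profile. Its log CPM correlated on average at 0.949 with those of other libraries, and the rest at 0.975 to 0.981, over the tested genes. Levels are given as CPM (counts scaled to a common library size) after trimmed-mean normalization. Trpc1 itself measured 4.83, 4.55, 4.77 and 4.33 CPM in WT replicates 1 to 4 and 3.35, 3.79 and 3.04 CPM in Trpc1-/- replicates 1 to 3. The groups did not overlap, but the count covers the whole gene and not the deleted exon alone (logFC -0.44, SE 0.13). By edgeR's quasi-likelihood test P was 0.0087 and adjusted P 0.407. By DESeq2, a second test for counts, adjusted P was 0.05001.

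Cells other than chondrocytes were present in every sample. The summed level of 13 chondrocyte markers was 6157 to 6326 CPM in WT and 3254, 6588 and 3639 CPM in the Trpc1-/- samples. All 13 had lower fitted values in Trpc1-/-, 4 of them at an unadjusted P under 0.05. The sum of 10 erythroid markers ran from 18815 to 35940 CPM in WT and from 41517 to 56920 CPM in Trpc1-/-, without overlap, and that of 6 fibroblast and synovium markers from 701 to 1076 CPM in WT and from 595 to 636 CPM in Trpc1-/-. For 9 bone-forming cell markers the sums ran from 7759 to 13853 CPM in WT. In Trpc1-/- replicates 1 to 3 they were 6089, 10467 and 6249 CPM. Col1a1 made up most of each sum, and the markers of that list did not run alike. Within WT, replicate 1 was highest for Col1a1 and Dmp1 but lowest for Bglap, Bglap2, Ibsp, Alpl, Phex and Mepe. No marker of any of these lists was at 0 in all samples. Fewer cells of a type and less RNA per cell cannot be told apart in such bulk tissue, and the part of these shifts in the results that follow was not tested.

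Glycosaminoglycan enzyme transcripts had slightly lower fitted levels in Trpc1-/- than in WT joints, with a median below 0 in every branch, and none of the differences passed the adjusted threshold. Of the 43 genes, 41 were expressed above the filter of more than 1 CPM in at least 2 samples. Among these 41, 37 had a logFC below 0 (90.2%, against 51.9% of the 16429 genes tested), and their median logFC was -0.14 against -0.0088 over all genes. No gene of the list was called by edgeR at an adjusted P of 0.05, where the background was likewise 0% of all genes, and the smallest adjusted P in the list was 0.408. DESeq2 called none either, with a smallest adjusted P of 0.108, against 1.79% of all genes called in either direction.

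Before adjustment, 7 genes passed P of 0.05 with edgeR, all of them lower in Trpc1-/- (17.1% of 41, against 5.49% of all genes on that side). They were B4galt7, Chpf2, Ust, Extl1, Extl2, Has1 and Has2. In 7 genes every Trpc1-/- sample lay below every WT sample (17.1%, against 6.42% of all genes), namely those just named with B3gat3 in place of Has1. On the opposite side no gene of the list passed or separated, compared with 4.51% and 7.15% of all genes. Single samples moved these counts. Without WT replicate 1, 12 genes passed P of 0.05, of which 11 were lower, against 8.38% of all genes lower. Without WT replicate 4 it was 12, all lower, against 6.54%, and without Trpc1-/- replicate 3 only Ust and Extl1 were left, against 2.17%. The count of separated genes was 19 without Trpc1-/- replicate 2, against 14.5% of all genes on the lower side, 14 without WT replicate 4, against 11.04%, 11 without WT replicate 3, against 9.87%, and 11, of which 10 were lower, without WT replicate 1, against 11.4%.

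**Figure D1:**
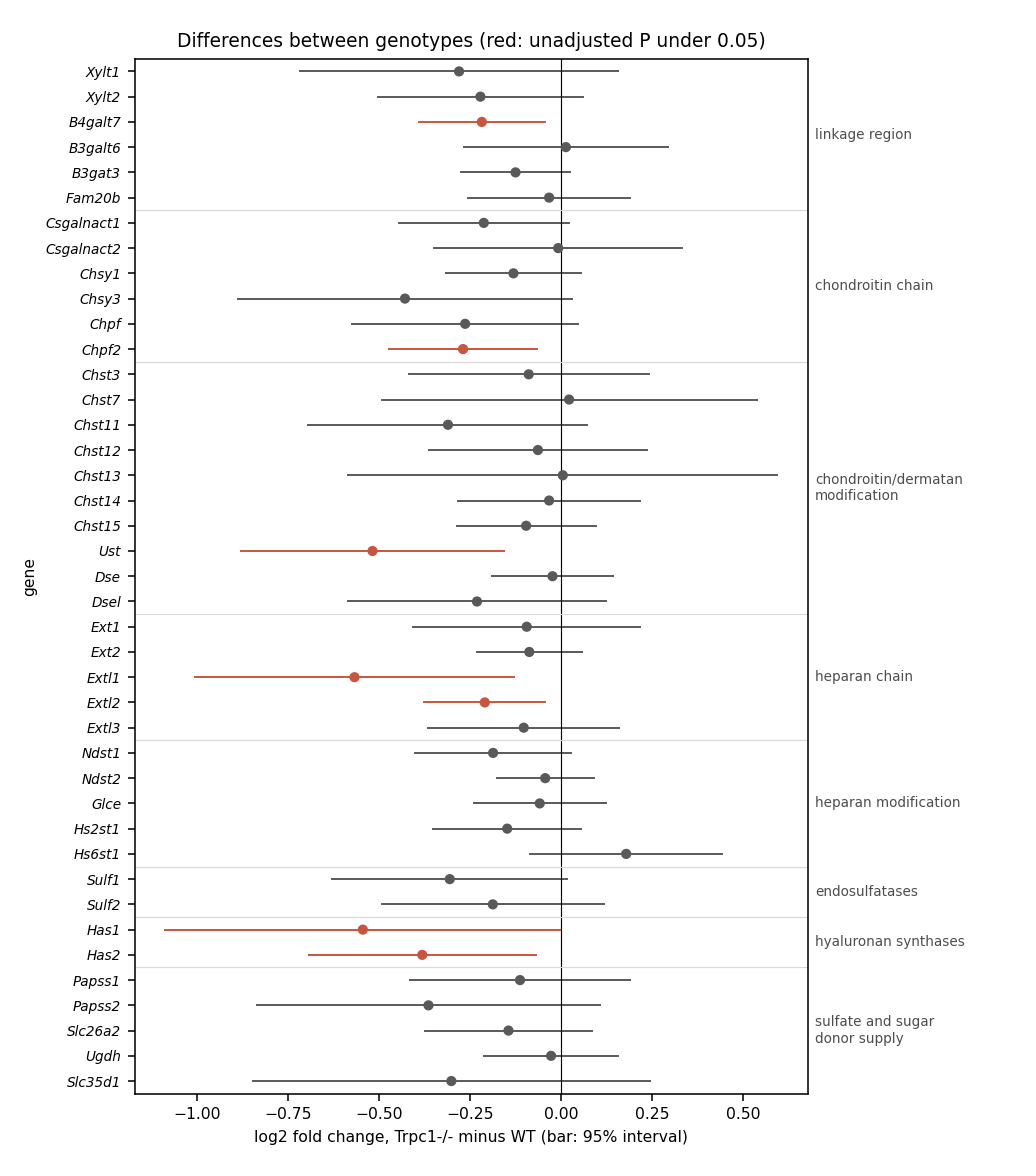
Log2 fold change of Trpc1-/- (n = 3) against WT (n = 4) for the 41 tested genes, grouped by branch. Points are edgeR estimates, bars are 95% intervals, and red marks the 7 genes with an unadjusted P under 0.05. Of the 41 points, 37 lie left of 0, and most intervals cross 0.

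The promoters of Ust, Chpf2 and Hs6st1 are shown as examples, picked after the values were seen. None of these genes was called by edgeR or DESeq2 with all samples. Ust and Chpf2 had the smallest P values of the list, and Hs6st1 had the highest logFC. Each runs 5′ to 3′ along its gene, from 250 bases before to 50 bases after the RefSeq start site (GRCm38.p6). Capitals mark GC boxes (GGGCGG, the core bound by SP1-family factors) and CCAAT boxes on either strand. The Ust promoter lies on the minus strand at chr10:8518776-8519075, that of Chpf2 on the plus strand at chr5:24586494-24586793, and that of Hs6st1 on the plus strand at chr1:36068150-36068449.
Ust: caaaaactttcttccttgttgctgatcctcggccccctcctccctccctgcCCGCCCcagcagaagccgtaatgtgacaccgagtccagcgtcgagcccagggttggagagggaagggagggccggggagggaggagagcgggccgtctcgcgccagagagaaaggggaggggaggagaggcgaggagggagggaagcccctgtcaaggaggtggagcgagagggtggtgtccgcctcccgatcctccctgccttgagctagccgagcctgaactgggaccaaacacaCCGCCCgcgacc
Chpf2: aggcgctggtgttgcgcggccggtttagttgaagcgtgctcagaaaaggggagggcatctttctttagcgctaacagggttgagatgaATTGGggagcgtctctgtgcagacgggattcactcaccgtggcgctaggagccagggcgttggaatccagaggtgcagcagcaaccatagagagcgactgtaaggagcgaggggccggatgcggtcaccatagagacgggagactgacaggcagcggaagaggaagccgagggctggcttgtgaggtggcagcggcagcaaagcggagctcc
Hs6st1: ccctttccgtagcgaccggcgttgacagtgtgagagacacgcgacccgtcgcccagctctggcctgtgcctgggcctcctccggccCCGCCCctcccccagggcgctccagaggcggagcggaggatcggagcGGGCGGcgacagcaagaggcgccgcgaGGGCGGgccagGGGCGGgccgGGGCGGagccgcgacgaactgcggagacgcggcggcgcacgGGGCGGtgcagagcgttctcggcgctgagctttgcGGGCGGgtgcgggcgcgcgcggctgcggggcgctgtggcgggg
The Hs6st1 window was 78.0% G and C and held 7 GC boxes, Ust held 2 at 66.3%, and Chpf2 held a single CCAAT box at 60.3%. RefSeq held 41 promoters for 33 of the 43 genes, some genes having more than 1. Of those 41 promoters, 27 held a GC box (65.9%, against 35.7% of 32851 promoters of the same length), and 18 held a CCAAT box (43.9%, against 37.4%). The TATAAA box was found in 2 (4.88%, against 13.6%). An AP-1 site (TGANTCA) was found in 1 (2.44%, against 7.81%), and the SOX core AACAAT in 3 (7.32%, against 10.7%). The members' promoters had a median G and C content of 66.0%, against 52.7% overall. Such matches are letters in a window and were not tested as binding sites.

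To compare the abundance of different genes, levels were divided by exon length (CPM per kilobase). In WT samples the most abundant of the list was Csgalnact2, which adds the first N-acetylgalactosamine of a chondroitin chain, at 23.6 ± 3.99 CPM per kilobase (SD, n = 4). Papss2, which makes the activated sulfate used by all sulfotransferases, followed at 19.6 ± 4.77, and the chondroitin 4-O-sulfotransferase Chst11 at 18.1 ± 2.35. The polymerase Chsy1 came next at 16.3 ± 1.10 and Chst12, a further 4-O-sulfotransferase, at 14.9 ± 2.40. The ranges of these neighbours overlapped over the WT samples. Dividing by the longest transcript instead kept Csgalnact2, Papss2, Chst11 and Chsy1 in that order. It put Fam20b at 15.5 CPM per kilobase, above Chst12 at 15.1. The heparan branch reached its highest level per kilobase with Ndst1 at 10.9 ± 0.969 and its chain-initiating enzyme Extl3 at 7.36 ± 1.09. Has1 and Has2 lay lower, at 1.90 ± 0.452 and 1.68 ± 0.221 CPM per kilobase.

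**Figure D2:**
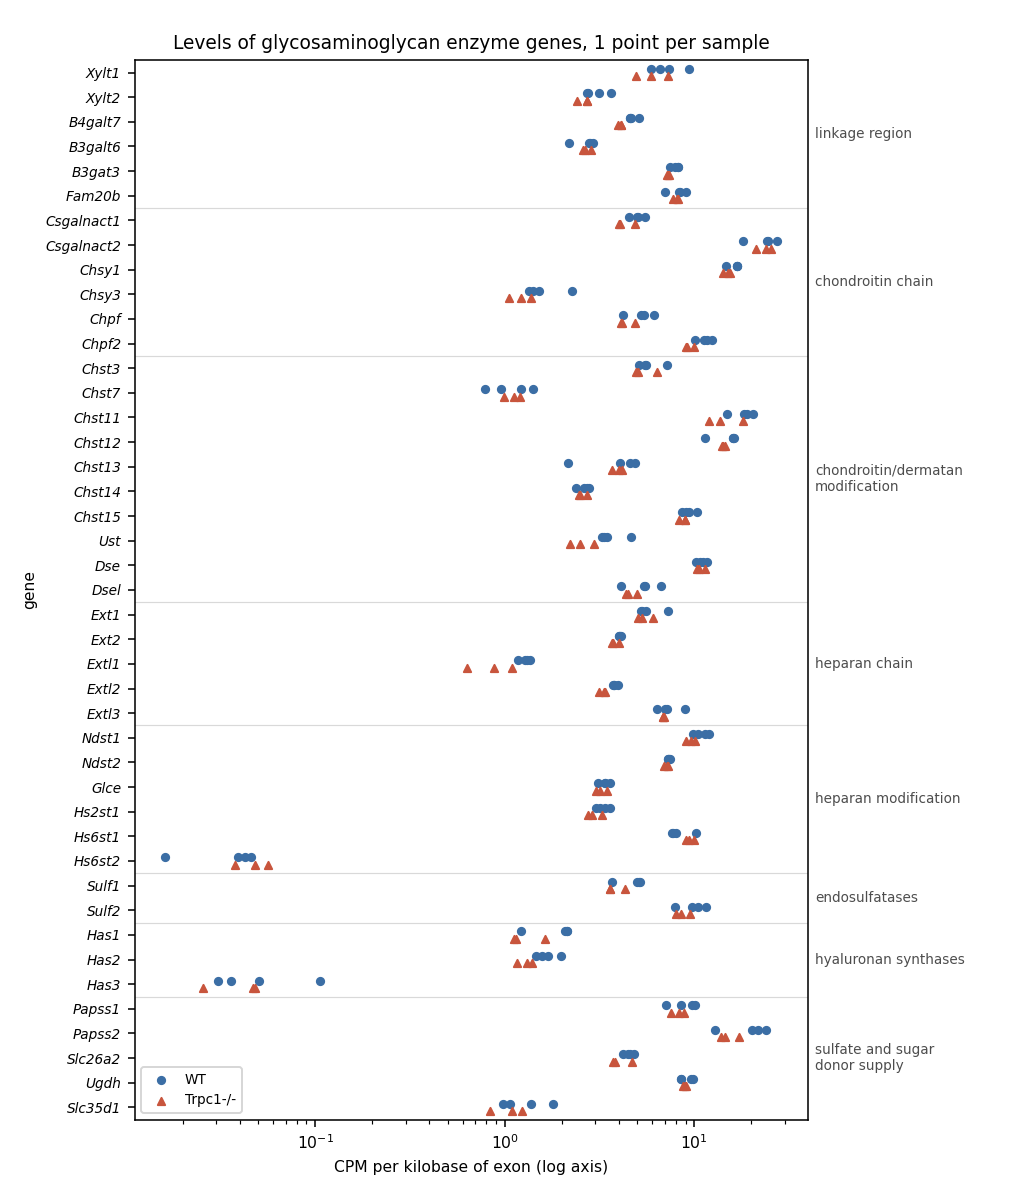
Level of each of the 43 genes in every sample, as CPM per kilobase of exon on a log axis, with circles for the 4 WT and triangles for the 3 Trpc1-/- samples. Csgalnact2, Papss2, Chst11 and Chsy1 stand highest, and Hs6st2 and Has3, which failed the filter, stand apart at the low end.

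Chondroitin, dermatan and heparan chains start on a tetrasaccharide linking them to serine. Xylt1 and Xylt2 attach the xylose, B4galt7 and B3galt6 add the galactoses, B3gat3 adds glucuronic acid, and Fam20b phosphorylates the xylose. B4galt7 (chromosome 13, 55599896 to 55610443) measured 14.8, 13.3, 13.4 and 13.2 CPM in WT and 11.9, 11.5 and 11.9 CPM in Trpc1-/-. Every Trpc1-/- sample was below the lowest WT sample, at a logFC of -0.22 (SE 0.075; adjusted P = 0.442 by edgeR). B3gat3 (chromosome 19, 8920374 to 8927236) measured 20.6, 19.4, 21.2 and 21.3 CPM in WT and 18.8, 18.6 and 19.2 CPM in Trpc1-/-. Here too the groups were apart, by a narrow gap and without passing P of 0.05 (logFC -0.13, SE 0.065; adjusted P = 0.536 by edgeR).

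The most abundant linkage gene per length, Fam20b, measured 61.5, 73.5, 79.6 and 72.7 CPM in WT and 71.4, 71.7 and 67.5 CPM in Trpc1-/-. All 3 Trpc1-/- values lay inside the WT range (logFC -0.033, SE 0.096). Xylt1 and Xylt2 had logFC of -0.28 (SE 0.19) and -0.22 (SE 0.12), with overlapping groups, and B3galt6 one of 0.013 (SE 0.12). Of the 6 linkage genes, 5 were on the lower side, 1 of them at P under 0.05, and the median logFC was -0.17.

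Chondroitin chains are begun by Csgalnact1 and Csgalnact2 and extended by Chsy1, Chsy3, Chpf and Chpf2, which act in pairs. Chpf2 (chromosome 5, 24586741 to 24594556) measured 69.0, 64.9, 62.7 and 56.3 CPM in WT and 50.3, 56.0 and 51.1 CPM in Trpc1-/-. The groups were apart, although the lowest WT sample, replicate 4, and the highest Trpc1-/- sample, replicate 2, nearly met. Its logFC was -0.27 (SE 0.088; adjusted P = 0.430 by edgeR), a 17.0% lower level. The microRNA gene Mir671 overlaps 98 bases of Chpf2 exon on the same strand.

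All 6 genes of this branch were on the lower side, 1 at P under 0.05, with a median logFC of -0.24. Csgalnact2, the most abundant, measured 98.0, 132.1, 133.8 and 149.5 CPM in WT and 129.8, 115.4 and 137.7 CPM in Trpc1-/-. The Trpc1-/- values fell in the middle of the WT range, with a logFC of -0.0083 (SE 0.15) whose sign changed in several alternative fits. Its paralog Csgalnact1 had a logFC of -0.21 (SE 0.10), Chpf -0.26 (SE 0.13), Chsy1 -0.13 (SE 0.080) and Chsy3 -0.43 (SE 0.20), all with overlapping groups.

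Sulfation and epimerization then set the pattern of the chain. Ust, which sulfates the uronic acid of chondroitin and dermatan chains at the 2-O position, gave the smallest P value of the list. It lies on chromosome 10 (8204756 to 8518825) and measured 21.4, 16.0, 15.4 and 15.0 CPM in WT and 11.5, 13.7 and 10.3 CPM in Trpc1-/-. All Trpc1-/- samples were below all WT samples, with WT replicate 1 well above the other WT samples. The mean level was 30.2% lower (logFC -0.52, SE 0.16, 95% interval -0.88 to -0.16; adjusted P = 0.408 by edgeR and 0.108 by DESeq2). Without WT replicate 1, DESeq2 gave a logFC of -0.39 and an adjusted P of 0.0342, in a fit chosen after seeing the data that called 5.42% of all genes, and edgeR an adjusted P of 0.159. Ust stayed at an unadjusted P under 0.05 in every fit tried.

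The main 4-O-sulfotransferase of cartilage, Chst11 (chromosome 10, 82985498 to 83195900), measured 82.1, 100.6, 104.8 and 112.7 CPM in WT and 65.9, 100.2 and 75.9 CPM in Trpc1-/-. Replicates 1 and 3 of Trpc1-/- were below every WT sample, while replicate 2 sat at the WT mean (logFC -0.31, SE 0.16; adjusted P = 0.540 by edgeR). Chst12 and Chst13, which act at the same position, had logFC of -0.064 (SE 0.13) and 0.0044 (SE 0.25). Chst3, which sulfates the 6-O position, had a logFC of -0.089 (SE 0.14), and Chst7, of like activity, one of 0.022 (SE 0.22).

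The dermatan 4-O-sulfotransferase Chst14 had a logFC of -0.033 (SE 0.11), and Chst15, which adds a further sulfate to residues already sulfated, -0.096 (SE 0.082). The epimerases Dse and Dsel, which turn chondroitin into dermatan, gave -0.024 (SE 0.072) and -0.23 (SE 0.15). In all, 8 of these 10 modification genes were on the lower side and the median logFC was -0.077. The 95% interval for Dse, -0.19 to 0.14, was the tightest of the 10 and that of Chst13, -0.59 to 0.59, the widest.

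**Figure D3:**
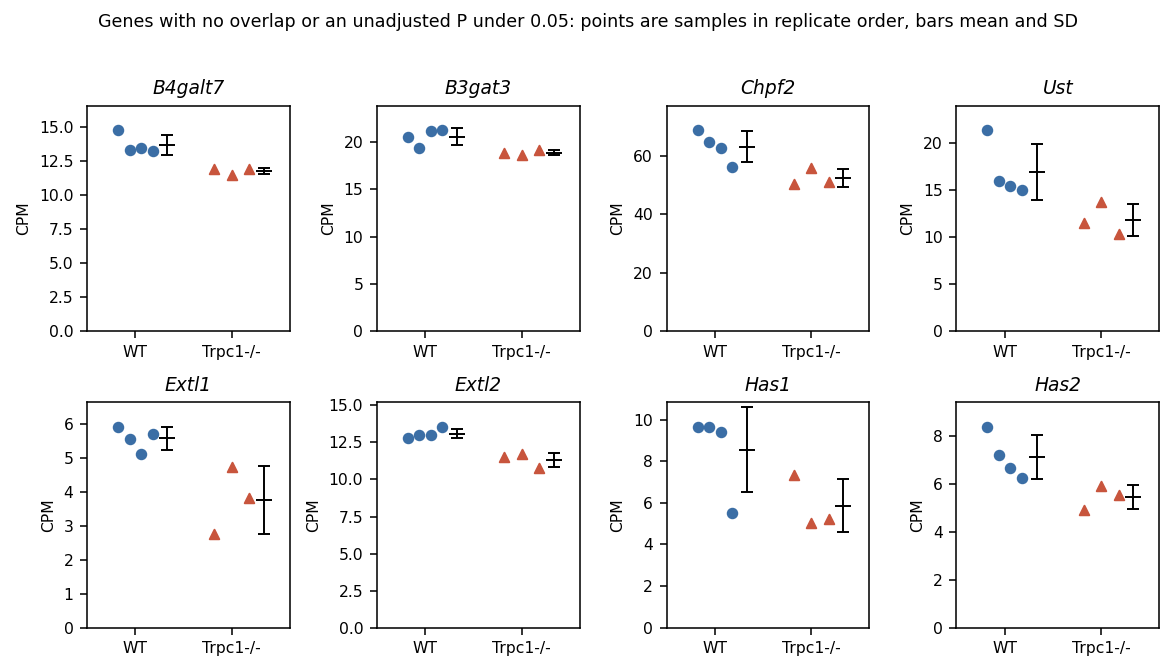
CPM per sample of the 8 genes with an unadjusted P under 0.05 or with groups apart, on axes that start at 0. Circles are the 4 WT and triangles the 3 Trpc1-/- samples in replicate order, and the bars give mean and SD. Only Has1 has overlapping groups, through WT replicate 4 at 5.51 CPM.

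Heparan chains are started by Extl3 and extended by a complex of Ext1 and Ext2, while Extl1 and Extl2 are related transferases, of which Extl2 can end a chain early. Extl1 (chromosome 4, 134356372 to 134383850) measured 5.92, 5.56, 5.10 and 5.71 CPM in WT and 2.74, 4.74 and 3.80 CPM in Trpc1-/-. The WT samples were close together and the Trpc1-/- samples all lower but spread out. The 32.5% difference was the largest mean difference of the list (logFC -0.57, SE 0.19, 95% interval -1.01 to -0.13; adjusted P = 0.433 by edgeR). With Trpc1-/- replicate 2 left out, DESeq2 called Extl1 at an adjusted P of 0.0084, also in a fit chosen after seeing the data, which called 2.23% of all genes. The adjusted P by edgeR in that setting was 0.360.

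Extl2 (chromosome 3, 116007462 to 116029017) measured 12.82, 12.99, 13.03 and 13.58 CPM in WT and 11.5, 11.7 and 10.8 CPM in Trpc1-/-. Both groups were tight and apart, at a logFC of -0.21 (SE 0.071; adjusted P = 0.442 by edgeR). The polymerase subunits Ext1 and Ext2 overlapped between the groups, with logFC of -0.095 (SE 0.13) and -0.088 (SE 0.062). Extl3 measured 54.0, 42.3, 38.6 and 43.4 CPM in WT and 41.3, 41.4 and 41.9 CPM in Trpc1-/-, the latter within the WT range (logFC -0.10, SE 0.11). All 5 heparan chain genes were on the lower side, 2 of them at P under 0.05.

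None of the 5 tested heparan modification genes reached P of 0.05. Ndst1, which removes the acetyl groups of glucosamine and replaces them with sulfate, measured 94.6, 86.7, 81.4 and 99.4 CPM in WT and 75.0, 83.5 and 80.0 CPM in Trpc1-/-. Only replicate 2 of Trpc1-/- entered the WT range (logFC -0.19, SE 0.092). Ndst2 was nearly equal between the groups, at 33.4 ± 0.406 (SD, n = 4) and 32.4 ± 0.941 CPM (SD, n = 3). The epimerase Glce and the 2-O-sulfotransferase Hs2st1 had logFC of -0.059 (SE 0.078) and -0.15 (SE 0.087).

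Hs6st1 (chromosome 1, 36068400 to 36106446), which adds 6-O-sulfate to glucosamine, had the highest logFC of the list. It measured 56.6, 44.3, 42.5 and 42.6 CPM in WT and 55.3, 52.3 and 50.2 CPM in Trpc1-/-. All Trpc1-/- samples were above WT replicates 2 to 4, and WT replicate 1 was above them all (logFC 0.18, SE 0.11; adjusted P = 0.593 by edgeR). Without that WT sample, in the fit chosen after seeing the data, DESeq2 gave a logFC of 0.29 (SE 0.071) and an adjusted P of 0.0030, and edgeR an adjusted P of 0.112. That DESeq2 fit called 5.42% of all genes. The sample left out was the only one that kept the groups from separating, so these values are description only. Hs6st2, a relative of Hs6st1, had 6 to 54 counts per sample and was not tested.

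Sulf1 and Sulf2 act outside the cell, removing the 6-O-sulfates that Hs6st1 and its relatives add. Sulf2 measured 67.4, 61.3, 57.2 and 46.2 CPM in WT and 55.7, 50.01 and 47.1 CPM in Trpc1-/-. The Trpc1-/- values all fell within the WT range, whose width came mostly from WT replicates 1 and 4. Sulf1 had a logFC of -0.31 (SE 0.14) against -0.19 (SE 0.13) for Sulf2, and neither reached P of 0.05.

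The hyaluronan synthases had the lowest branch median, -0.46 over 2 tested genes. Has2 (chromosome 15, 56665627 to 56694539) measured 8.39, 7.20, 6.68 and 6.22 CPM in WT and 4.92, 5.91 and 5.54 CPM in Trpc1-/-. The groups were apart by a narrow gap, with a logFC of -0.38 (SE 0.13; adjusted P = 0.453 by edgeR). Has1 (chromosome 17, 17843323 to 17855205) measured 9.68, 9.65, 9.43 and 5.51 CPM in WT and 7.35, 5.03 and 5.22 CPM in Trpc1-/-. WT replicate 4 lay with the Trpc1-/- samples, so the groups overlapped (logFC -0.54, SE 0.23; adjusted P = 0.499 by edgeR). The summed fibroblast and synovium markers, given earlier, were lower without overlap, as was Has2 but not Has1. Among the 6 markers only Prg4, the highest of them in every sample, had groups apart (logFC -0.53, SE 0.21). The gap was narrow, with the lowest WT sample at 389.1 CPM and the highest Trpc1-/- sample at 387.8 CPM. Pdgfra, Thy1, Dpt, Pi16 and Clec3b had logFC below 0 with overlapping groups, the lowest being that of Thy1 (-0.62, SE 0.18). The part of these markers' cells in the Has1 and Has2 values was not tested. Has3 had 18 to 34 counts per sample and was not tested.

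Sulfate enters through the transporter Slc26a2, is activated by Papss1 and Papss2, and is joined in the Golgi to sugars whose donors depend on Ugdh and the carrier Slc35d1. All 5 supply genes were on the lower side, none at P under 0.05, with a median logFC of -0.14. Papss2 (chromosome 19, 32595790 to 32667187) measured 47.6, 74.9, 80.4 and 88.6 CPM in WT and 51.7, 64.1 and 54.1 CPM in Trpc1-/-. All Trpc1-/- samples lay below WT replicates 2 to 4 but above WT replicate 1 (logFC -0.36, SE 0.20; adjusted P = 0.551 by edgeR). Without that sample, again in the fit chosen after seeing the data, DESeq2 gave a logFC of -0.52 (SE 0.10) and an adjusted P of 0.000113, and edgeR an adjusted P of 0.102. That DESeq2 fit called 5.42% of all genes. The sample left out was the only one that kept the groups from separating, so these values are description only. Papss1, Slc26a2, Ugdh and Slc35d1 had logFC of -0.11 (SE 0.13), -0.14 (SE 0.099), -0.028 (SE 0.080) and -0.30 (SE 0.23).

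The 3 Trpc1-/- samples did not deviate equally, a pattern looked at after the values had been seen. Replicate 2 was the highest of the 3 for 26 of the 41 genes (63.4%, against 36.4% of all genes). It lay below the WT range in 10 genes, compared with 23 for replicate 1 and 20 for replicate 3. Over all genes these shares were 13.4%, 23.6% and 20.8%. The median gene of the list stood at -0.18, -0.072 and -0.20 log2 units from the WT mean in Trpc1-/- replicates 1 to 3.

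**Figure D4:**
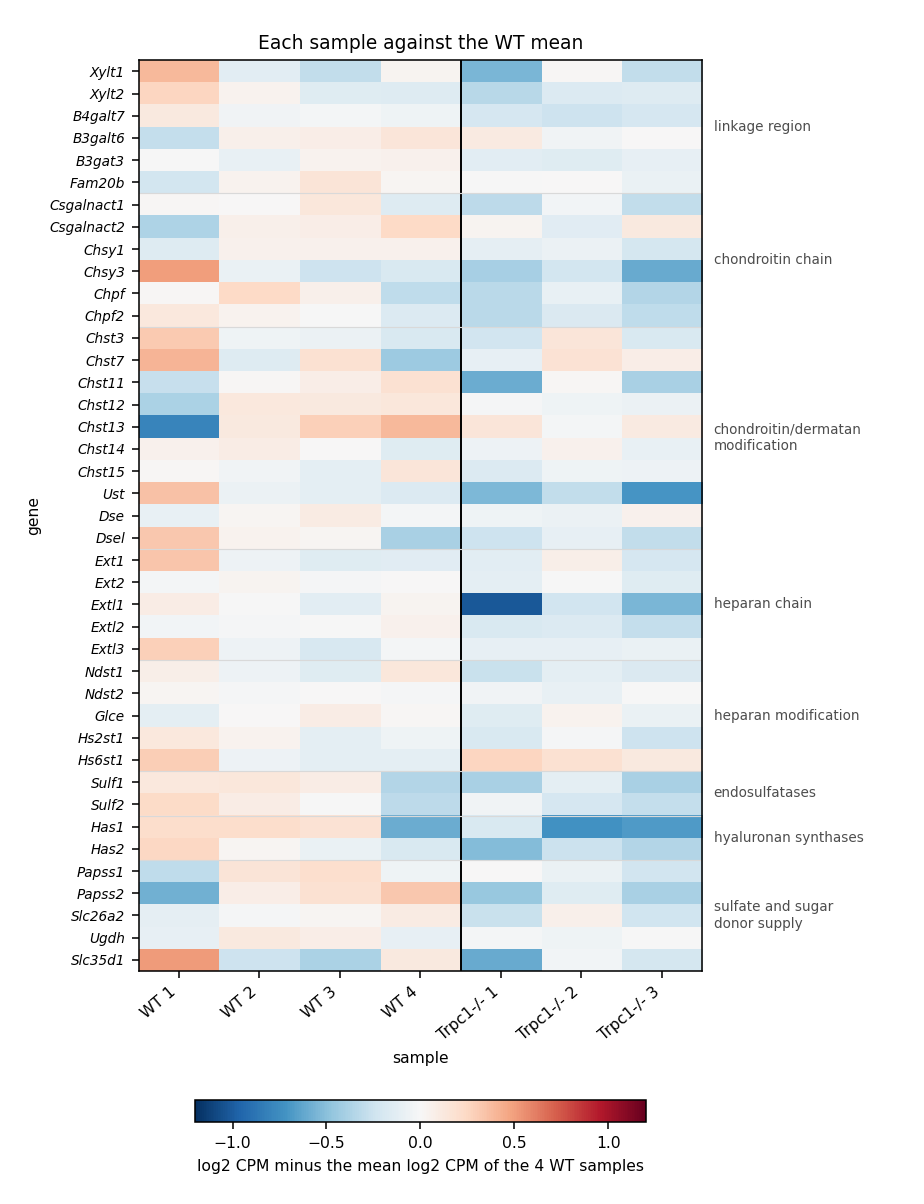
Log2 CPM of the 41 tested genes in each sample minus the mean of the 4 WT samples, by branch, with blue below and red above that mean. The columns of Trpc1-/- replicates 1 and 3 are bluer than that of replicate 2, and WT replicate 1 departs most from the other WT samples.

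Chondrocyte matrix genes were likewise highest in replicate 2 of these 3 samples. The same held for the summed markers of bone-forming cells (6089, 10467 and 6249 CPM in Trpc1-/- replicates 1 to 3) and hypertrophic chondrocytes (395, 612 and 405 CPM). Summed osteoclast, endothelial, fibroblast and B cell markers were also highest there, whereas erythroid, neutrophil and adipocyte sums were lowest there. Acan, the aggrecan core protein, measured 636, 592, 580 and 705 CPM in WT and 355, 675 and 379 CPM in Trpc1-/-. Col2a1, the main cartilage collagen, was at 48.8%, 110% and 56.9% of its WT mean in Trpc1-/- replicates 1 to 3. Chst11 was at 65.9%, 100.2% and 75.8% in the same order, Slc26a2 at 82.9%, 104% and 84.5%, Xylt1 at 67.2%, 99.3% and 80.4%, and Papss2 at 70.9%, 88.0% and 74.2%. These 4 were picked after their values were seen, and other members ran differently, such as Csgalnact2, for which replicate 2 was the lowest of the 3. Whether the share of chondrocytes or of any other cell type in the tissue accounts for any of these differences was not tested. The genes of the list with groups apart, Ust and Has2 among them, were by that definition below the WT range in all 3 Trpc1-/- samples.

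**Figure D5:**
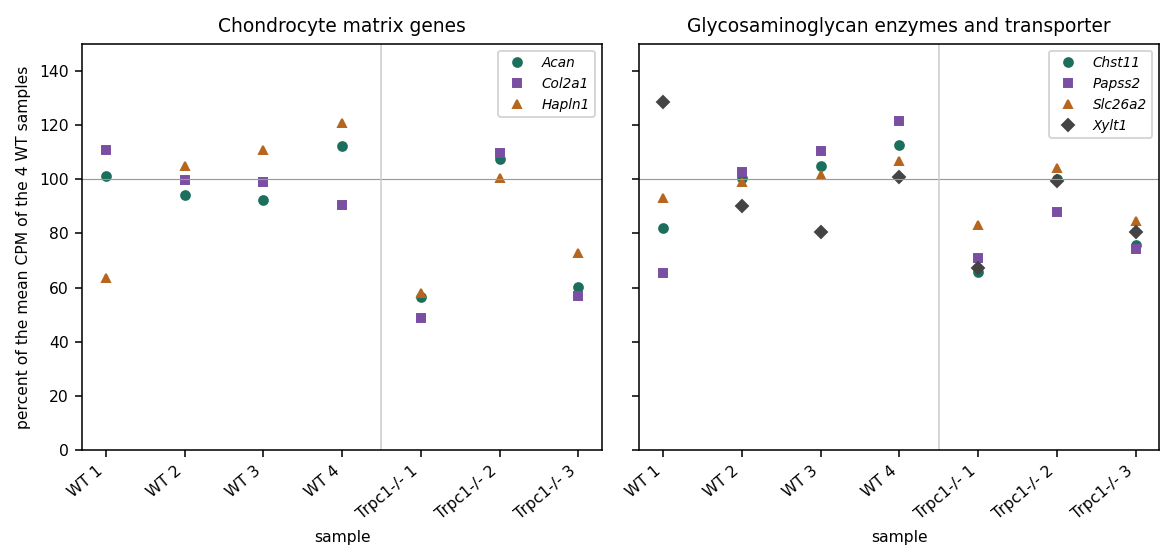
Level in each sample as a percent of the mean of the 4 WT samples, for 3 chondrocyte matrix genes (left) and 4 genes of sulfation, linkage and sulfate supply (right). Trpc1-/- replicate 2 lies between 88.0% and 110% in both panels, and replicates 1 and 3 lie lower for all 7 genes.

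Genes next to these in the pathway were taken from a separate list of 53, of which 48 were tested. Of the 48, 38 were on the lower side (against 51.9% of all genes), 7 were at P under 0.05 and lower (14.6%, against 5.49%), none was at P under 0.05 and higher, and the median logFC was -0.061. DESeq2 called 4, all lower, against 0.828% of all genes called lower. The list was drawn up with earlier results of these data known, so these shares are description only. Cemip, a hyaluronan-degrading protein, measured 60.4, 46.6, 43.0 and 45.1 CPM in WT and 28.9, 36.4 and 19.9 CPM in Trpc1-/-. The groups were apart, at a logFC of -0.78 (SE 0.21; adjusted P = 0.0328 by DESeq2 and 0.395 by edgeR).

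The other genes DESeq2 called were sulfotransferases. Hs3st3b1, which adds the rare 3-O-sulfate to heparan, measured 7.12, 7.29, 6.69 and 7.46 CPM in WT and 4.58, 5.30 and 4.87 CPM in Trpc1-/- (logFC -0.54, SE 0.10; adjusted P = 0.000329 by DESeq2 and 0.381 by edgeR). Its paralog Hs3st3a1 measured 4.51, 4.51, 3.65 and 5.15 CPM in WT and 2.40, 3.08 and 2.63 CPM in Trpc1-/- (logFC -0.72, SE 0.16; adjusted P = 0.0095 by DESeq2 and 0.395 by edgeR). The groups were apart for both, and since their sequences are alike, how reads were divided between them is uncertain. Chst5, which sulfates N-acetylglucosamine, measured 3.69, 3.66, 3.93 and 4.57 CPM in WT and 2.43, 2.41 and 2.40 CPM in Trpc1-/-, also apart (logFC -0.71, SE 0.14; adjusted P = 0.000307 by DESeq2 and 0.381 by edgeR). Gfpt2, which serves amino sugar synthesis, and the lysosomal sulfatase Sgsh were at P under 0.05, with logFC of -0.36 (SE 0.12) and -0.24 (SE 0.067).

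The list of core proteins, the carriers of the chains, also took in proteins without such chains, such as the link protein Hapln1. It too was drawn up with earlier results of these data known. The list held 34 genes, of which 30 were tested. Of these, 27 were on the lower side (90.0%, against 51.9% of all genes), 5 at P under 0.05 (16.7%, against 5.49%), with a median logFC of -0.29. DESeq2 called Prelp, a leucine-rich repeat protein of the matrix, which measured 232, 212, 196 and 168 CPM in WT and 124, 166 and 115 CPM in Trpc1-/- (logFC -0.58, SE 0.16, adjusted P = 0.0411 by DESeq2 and 0.403 by edgeR). The groups were apart by a narrow gap. The others at P under 0.05 were versican (Vcan, logFC -0.49, SE 0.15), syndecan 4 (Sdc4, -0.35, SE 0.098), the collagen XVIII gene Col18a1 (-0.44, SE 0.15) and betaglycan (Tgfbr3, -0.32, SE 0.12). In either direction, the count of 5 became 3 without Trpc1-/- replicate 3 (2.17% of all genes lower at that P) and 9 without WT replicate 1 (8.38%). It was 10 without WT replicate 4 (6.54%) and 10 without Trpc1-/- replicate 2 (5.97%). The shares in brackets cover the lower side alone, so a share in either direction would be larger.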

How the data were processed

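Stranded, ribosome-depleted libraries were made and sequenced by the authors, who trimmed with cutadapt 2.5, aligned to GRCm38 with HISAT2 2.1.0 and derived estimated counts per gene from StringTie 2.0.3 coverage. The deposited estimated counts were whole numbers, not normalized, for 55401 genes in 7 samples. Reads shared between paralogs had been divided by that pipeline before deposit. The annotation release used was not given in the sources used here, and exon lengths and positions came from GENCODE M21. All columns of samples were used.

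Genes above 1 CPM in at least 2 samples were kept (16429). In R 4.3.3, edgeR 4.0.16 was used for TMM normalization, CPM and the quasi-likelihood test, in which genotype was the single term, with Benjamini-Hochberg adjustment over all tested genes at 0.05. The SE of a logFC was derived from its F value. CPM in the text is normalized CPM. DESeq2 1.42.0, the study's tool, and limma 3.58.1 (voom) were alternatives, with 2 normalizations, 2 filters, a replicate block, a subset by library name, and each of the 7 samples left out. The scripts were tested on simulated data. Totals ran from 52142451 to 118254070 counts, and the common dispersion was 0.0424. P values measure the spread between pooled samples that the labels call biological replicates. The 43 genes and all other lists were chosen with earlier results of these data known. Every gene of the list is accounted for; values per sample are printed for genes at P under 0.05, genes whose groups do not overlap and the most abundant of each branch per length, and for Hs6st1, chosen after its values were seen. Of the other lists, genes at P under 0.05 or called by DESeq2 are named, apart from 1 that is not reported here. Promoters came from RefSeq.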

Additional observations from a re-analysis of the deposited data

Results flagged for a closer look

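In 8 of the 41 tested genes, 1 of the 4 WT samples lay far from the other 3 by Dixon's test at the 95% level, where chance gives about 1 in 20 groups and 11.7% of all tested genes had such a sample. WT replicate 1 was that sample in 6 of the 8, and in 87.2% of the genes so marked among all tested genes, so this is not particular to the list. It was highest for B4galt7 (14.8 CPM, next 13.4), Ust (21.4, next 16.0), Ext1 (59.0, next 45.0) and Hs6st1 (56.6, next 44.3). It was lowest for Chsy1 (61.3 CPM, next 70.4) and Chst12 (26.8, next 37.8). WT replicate 4 was lowest for Sulf1 (41.4 CPM, next 56.5) and Has1 (5.51, next 9.43). WT replicate 1 also had the fewest counts and the lowest correlation with the other samples. Its summed skeletal muscle markers were at 973 CPM, against 186, 147 and 54.0 CPM in WT replicates 2 to 4. Its summed neutrophil markers were at 5233 CPM, against 13133.6, 15088.6 and 16660.5 CPM. Its chondrocyte sum, 6265 CPM, lay within the range of the other WT samples. The part of depth or tissue make-up in these values was not tested.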

How the results depend on the processing

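Of the 41 tested genes, 30 kept the sign of their logFC in all 15 alternatives, and edgeR and voom called none in any of them. Added after seeing the data, DESeq2 called 3 without WT replicate 1 (Ust, Hs6st1 and Papss2), 1 without Trpc1-/- replicate 2 (Extl1) and 0 with the replicate block, where it called 5.42%, 2.23% and 0.323% of all genes. No other single sample was left out with DESeq2. Genes of the list at P under 0.05 numbered 7, against 4 without a filter on low counts and 2 to 12 with a sample left out. The share of all genes at that P and lower was 5.49%, 3.16% and 2.17% to 8.38% in turn. Genes with groups apart numbered 7, against 19 with the subset by library name, WT replicates 1 and 2 against all Trpc1-/- samples (17.8% of all genes lower) and 7 to 19 with a sample left out. DESeq2, voom and the block give no such count. The subset left out WT replicates 3 and 4, whose library names came from a different number series than those of all other samples. The meaning of the series was not stated. Other pathway genes at P under 0.05 in either direction numbered 7, and 6 to 13 with a sample left out. The 13 came without WT replicate 1, where 8.38% of all genes were lower at that P. Core protein genes at P under 0.05 in either direction numbered 5, against 8 with DESeq2, 11 with the library-name subset and 3 to 10 with a sample left out. The share of all genes on the lower side alone was 6.70% with DESeq2 and 8.38% with the subset. Such counts and shares are not directly comparable. The cause of these shifts in count was not tested. The members' median logFC was -0.21 to -0.11 with a sample left out, and -0.20 with total counts alone, where the median of all genes was -0.067 and 40 of 41 genes were lower. Same-numbered samples were different animals, with correlations of their deviations of -0.36, -0.22 and -0.041, so the numbers did not pair them. With the replicate block on replicates 1 to 3, 7 genes of the list were at P under 0.05, against 4.16% of all genes lower (Chpf, Chpf2, Ust, Dsel, Sulf1, Sulf2 and Has1), and the median logFC was -0.14.

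Signs turned for genes near 0. With voom, the logFC was -0.0018 for B3galt6, 0.022 for Csgalnact2 and -0.0057 for Chst13, and with total counts -0.051 for B3galt6, -0.027 for Chst7 and -0.073 for Chst13. Without a filter it was 0.015 for Csgalnact2 and 0.0025 for Dse, and with the replicate block 0.084 for Csgalnact2 and -0.094 for Chst7. With the library-name subset it was 0.056 for Fam20b, 0.15 for Csgalnact2, -0.091 for Chst7, 0.057 for Chst12 and 0.012 for Dse. With a sample left out, the logFC ranged from -0.073 to 0.059 for B3galt6, -0.10 to 0.02 for Fam20b, -0.12 to 0.073 for Csgalnact2, -0.22 to 0.022 for Chst3, -0.11 to 0.16 for Chst7, -0.19 to 0.13 for Chst13, -0.061 to 0.0096 for Dse, -0.18 to 0.027 for Ext1, -0.17 to 0.0001 for Extl3 and -0.062 to 0.013 for Ugdh.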

Other observations

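The balance between enzymes of opposed or parallel action was examined as a ratio of CPM within each sample, which is read between samples and not as a level of one gene over another. For Chst3 over Chst11, 6-O against 4-O sulfation of chondroitin, the ratio was 0.566, 0.359, 0.339 and 0.293 in WT and 0.486, 0.414 and 0.435 in Trpc1-/-. All 3 Trpc1-/- samples lay above WT replicates 2 to 4 and below WT replicate 1, so the groups overlapped. For Papss2 over Papss1 it was 2.19, 2.51, 2.61 and 3.41 in WT and 1.92, 2.52 and 2.36 in Trpc1-/-, also with overlap. For Sulf1 over Sulf2 it was 0.923 ± 0.0572 (SD, n = 4) in WT and 0.854 ± 0.127 (SD, n = 3) in Trpc1-/-. None of these ratios was tested.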
